A study of Mus musculus with 48 samples.

Results

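A set of 8 genes that mark leukocytes, macrophages and B cells (8 of the 14125 genes in the count table) were followed across the 4 groups of a mouse muscle study and against the insulin label of the corticosterone mice. They are Ptprc, Csf1r, Itgam, Cd68, Mrc1, Adgre1, C1qa and Ighm. They were chosen by name with earlier results of these data known. All 8 were present in the raw count table, and all 8 passed the filter on low counts. RNA was measured in 48 libraries of mixed gastrocnemius, a hindlimb muscle, of male C57BL6J mice of unstated age. EtOH_CON mice drank 1% ethanol in water for 2 weeks and ate the control diet (n = 10). EtOH_ATGLi mice drank the same vehicle and ate food (Teklad 8640) that held atglistatin at 571 mg/kg, which blocks adipose triglyceride lipase, ATGL (n = 10). Cort_CON mice drank water with 100 ug/ml corticosterone, the main glucocorticoid hormone of mice, on the control diet (n = 14), and Cort_ATGLi mice drank it on the atglistatin food (n = 14). The labels do not say if ethanol was in the corticosterone water as well, so both could differ between the water treatments. In the labels 9 Cort_CON mice are diabetic and 5 are not, and all other mice are nondiabetic. Single libraries are named by their title numbers, such as p41. Each has its own glucose and insulin label and was taken as 1 mouse, which the labels do not state.

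Skeletal muscle holds resident macrophages among its fibres, vessels and connective tissue, and few lymphocytes. Ptprc encodes CD45, a membrane phosphatase found on nearly all nucleated blood cells. Csf1r is the receptor through which CSF1 and IL-34 keep macrophages alive; Adgre1 (F4/80), Mrc1 (the CD206 mannose receptor), Cd68 (a lysosomal membrane protein) and C1qa (a chain of complement C1q) are made by mature tissue macrophages, and Itgam (CD11b) is the integrin chain of monocytes, neutrophils and many macrophages. Ighm is the constant region of the IgM heavy chain, the antigen receptor of B cells. Glucocorticoids act on leukocytes through the glucocorticoid receptor, a DNA-binding protein.

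RefSeq promoters (GRCm38.p6, 250 bases before to 50 after the start) were found for 4 of the 8 genes. They are shown to set genes that fell with corticosterone (Ptprc, Itgam, Mrc1) beside one that did not pass the test (Cd68). Capitals mark the letters GAGGAA or its reverse complement TTCCTC, the core bound by the myeloid factor PU.1, and AGAACA or its reverse complement TGTTCT, a core of glucocorticoid response elements.
Ptprc, chr1:138175256-138175555, minus strand: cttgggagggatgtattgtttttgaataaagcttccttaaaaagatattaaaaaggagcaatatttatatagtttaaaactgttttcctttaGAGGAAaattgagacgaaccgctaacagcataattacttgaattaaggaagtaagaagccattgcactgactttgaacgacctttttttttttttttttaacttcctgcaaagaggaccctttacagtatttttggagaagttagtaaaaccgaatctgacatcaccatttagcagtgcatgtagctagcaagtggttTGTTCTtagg
Itgam, chr7:128062390-128062689, plus strand: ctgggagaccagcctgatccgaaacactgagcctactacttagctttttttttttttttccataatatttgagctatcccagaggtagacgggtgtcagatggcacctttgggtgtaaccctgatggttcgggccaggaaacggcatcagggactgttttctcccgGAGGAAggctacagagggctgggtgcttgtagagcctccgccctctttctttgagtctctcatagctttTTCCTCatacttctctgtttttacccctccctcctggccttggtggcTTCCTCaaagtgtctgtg
Cd68, chr11:69666121-69666420, minus strand: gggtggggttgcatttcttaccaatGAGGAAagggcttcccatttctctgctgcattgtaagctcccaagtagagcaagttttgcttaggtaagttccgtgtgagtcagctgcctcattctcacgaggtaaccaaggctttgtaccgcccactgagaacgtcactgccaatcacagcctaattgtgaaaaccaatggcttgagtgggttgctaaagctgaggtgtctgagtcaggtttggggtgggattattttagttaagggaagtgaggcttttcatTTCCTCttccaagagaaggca
Mrc1, chr2:14229164-14229463, plus strand: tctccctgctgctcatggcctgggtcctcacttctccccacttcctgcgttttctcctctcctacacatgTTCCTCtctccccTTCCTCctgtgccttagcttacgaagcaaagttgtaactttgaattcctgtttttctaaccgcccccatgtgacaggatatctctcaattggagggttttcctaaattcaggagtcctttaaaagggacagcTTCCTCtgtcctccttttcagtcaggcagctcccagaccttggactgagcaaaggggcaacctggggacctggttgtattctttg
The PU.1 letters stand 1 time in the Ptprc window, 3 times in Itgam, 2 times in Cd68 and 3 times in Mrc1. They occur in 28.3% of 32851 RefSeq promoters of this length. The glucocorticoid letters stand once among these windows, in Ptprc at 41 bases after the start, and in 19.0% of all promoters. Ptprc has another RefSeq start whose window (chr1:138175077-138175376) is not printed. It holds the PU.1 letters 0 times and TGTTCT at -139 from that start, so both Ptprc results depend on the start taken. The motifs do not overlap, and a match is a string of letters, not a shown binding site.

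Total counts lay between 10453888 and 24034481 per library, with group medians from 13547215 (EtOH_ATGLi) to 15000177 (EtOH_CON). Levels are in CPM, which divides each count by the TMM-scaled total of its library (the total times a factor that evens out differences in RNA make-up). The libraries read transcript ends and levels were not divided by gene length, so no level is compared between genes. A level of 1 CPM corresponds to between 9.15 and 26 counts, depending on the library. Ptprc, Itgam and Adgre1 reached counts as low as 2 in single Cort_ATGLi libraries, and Itgam also in Cort_CON, so their values per library are coarse. In 47 of 48 libraries every count was even, so 2 was the smallest count above 0 that these could hold. The EtOH_CON library p01 and the Cort_ATGLi library p41 had the lowest median rank correlations with the other libraries of their groups (0.957 and 0.961).

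In GRCm38 with GENCODE vM21, Ptprc (ENSMUSG00000026395) lies on chromosome 1 at 138062861 to 138175708 on the minus strand. Csf1r (ENSMUSG00000024621) is on chromosome 18 at 61100598 to 61132149 and Itgam (ENSMUSG00000030786) on chromosome 7 at 128062640 to 128118491, both on the plus strand. Cd68 (ENSMUSG00000018774) is on chromosome 11 at 69664213 to 69666153 on the minus strand, and Mrc1 (ENSMUSG00000026712) on chromosome 2 at 14229392 to 14332057 on the plus strand. Adgre1 (ENSMUSG00000004730) is on chromosome 17 at 57358691 to 57483527 on the plus strand, and C1qa (ENSMUSG00000036887) on chromosome 4 at 136895917 to 136898803 on the minus strand. Ighm (ENSMUSG00000076617) is an immunoglobulin constant gene on chromosome 12 at 113418558 to 113422730 on the minus strand. The end of Csf1r overlaps Hmgxb3 on the other strand, and it is not stated here if the counting used strand. Hmgxb3 did not pass the test for corticosterone on either diet (log2 difference 0.07, SE 0.10, edgeR adjusted p = 0.607 on the control diet). A130071D04Rik lies inside Ptprc on its strand and was counted, at too few counts to be tested.

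With corticosterone 6 of the 8 genes fell on the control diet: Ptprc, Csf1r, Itgam, Mrc1, Adgre1 and Ighm. Cd68 and C1qa did not pass the test, and none rose. Of all 12592 tested genes, 19.5% were called lower and 18.9% higher, by edgeR's quasi-likelihood test with adjusted p below 0.05. The median log2 difference was -0.72 over the 8 genes and 0.00 over all genes tested. The 8 genes and the lists below were chosen with earlier results of these data known, so these counts are no independent support. In bulk tissue, fewer cells of a type and less RNA per cell cannot be told apart.

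**Figure D1:**
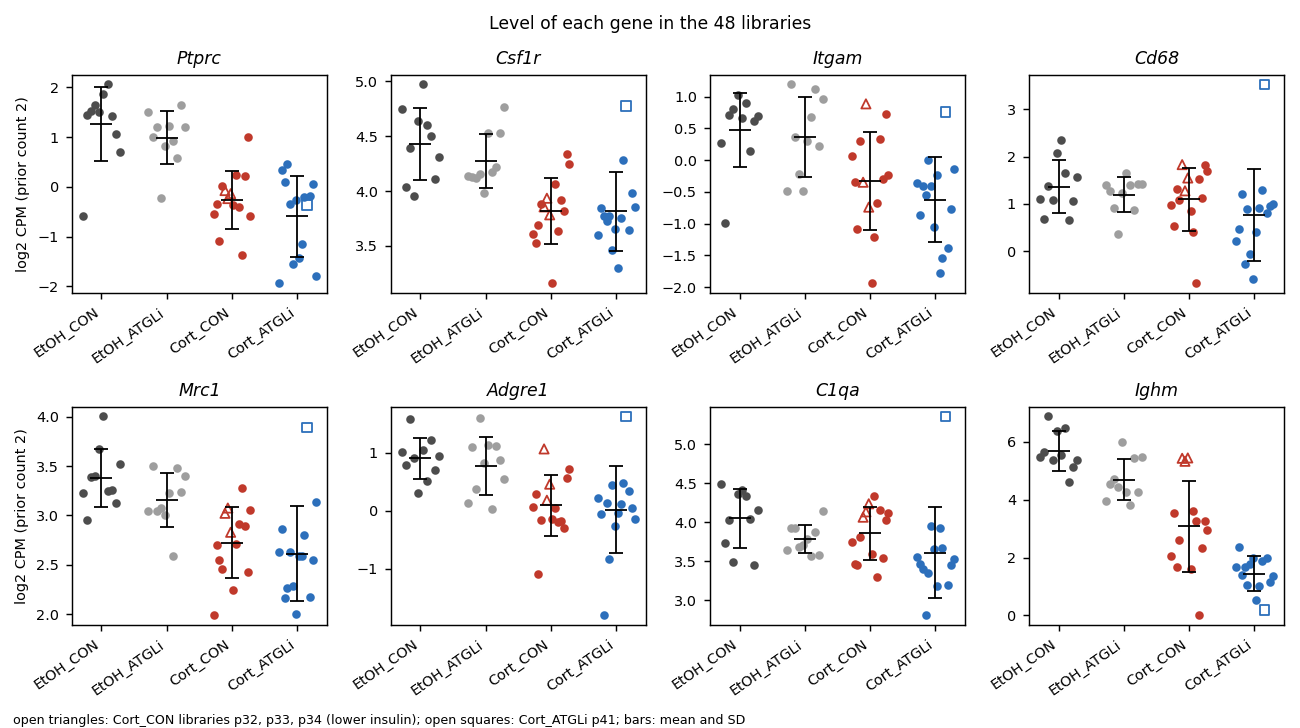
Level of each gene in every library, as log2 CPM (prior count 2) on the vertical axis, by group on the horizontal axis. Points are libraries, bars are mean and SD, open triangles are the lower-insulin Cort_CON libraries p32, p33 and p34, and the open square is Cort_ATGLi p41. Ptprc and Ighm have the lowest corticosterone groups relative to vehicle, and p41 is the highest Cort_ATGLi library for 6 genes. The corticosterone and vehicle groups of a diet overlap for every gene, except for Ighm on the atglistatin diet.

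Ptprc, the marker of leukocytes as a whole, ranged from 0.534 to 4.02 CPM in EtOH_CON with a median of 2.63. In Cort_CON it ranged from 0.252 to 1.86 with a median of 0.686. The groups overlap: the lowest EtOH_CON libraries were p01, at 0.534, and p16, at 1.49, and the highest Cort_CON library was p49, at 1.86. All 14 Cort_CON libraries lay below the EtOH_CON mean of 2.502 ± 0.991 (SD, n = 10). The fold was 3.28 (log2 difference -1.72, SE 0.27, adjusted p = 8.88e-07). Of all genes 15% were called lower with corticosterone on the atglistatin diet and 15% higher, and the same 6 of the 8 fell there. Ptprc ran from 0.725 to 3.003 CPM in EtOH_ATGLi and from 0.129 to 1.241 in Cort_ATGLi, and it fell by 1.62 on the log2 scale (SE 0.28, adjusted p = 6.37e-06).

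Among 11 tested pan-leukocyte genes, Ptprc included, 9 fell and 0 rose on the control diet, with a median log2 difference of -0.997. Cd52, a short glycoprotein of lymphocytes and monocytes, fell by 2.43 (SE 0.32, adjusted p = 1.24e-08), and Lcp1 (L-plastin, an actin bundler of blood cells) by 1.53 (adjusted p = 2.10e-08). Spi1, which encodes PU.1, fell by 0.91 (SE 0.26, adjusted p = 0.00351). Their summed level lay between 22.5 and 41.1 CPM in EtOH_CON and between 9.76 and 18.7 in Cort_CON, without overlap. With atglistatin food 8 of 11 fell and 0 rose (median -0.85), and the summed levels overlapped, from 18.2 to 28.3 CPM in EtOH_ATGLi and from 7.54 to 29.5 in Cort_ATGLi.

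Csf1r had levels of 15.3 to 31.2 CPM in EtOH_CON (median 21.7) and 8.83 to 20.1 in Cort_CON (median 14.2). Of the 14 Cort_CON libraries, 11 lay below the lowest EtOH_CON library. The fold was 1.53 (log2 difference -0.61, SE 0.13, adjusted p = 9.13e-05). On the atglistatin diet it fell by 0.43 (SE 0.13, adjusted p = 0.00700), from 15.7 to 27.05 CPM in EtOH_ATGLi to 9.69 to 27.2 in Cort_ATGLi, where p41 held the 27.2 and the next library 19.3.

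Adgre1, the F4/80 antigen, ranged from 1.11 to 2.86 CPM in EtOH_CON (median 1.76) and from 0.337 to 1.96 in Cort_CON (median 0.906). The highest Cort_CON value belonged to p32, 1 of the lower-insulin mice described further on, and 10 of 14 libraries lay below every EtOH_CON library. It fell by 0.83 on the log2 scale (SE 0.25, adjusted p = 0.00584). With atglistatin food it fell by 0.69 (SE 0.25, adjusted p = 0.0274), a call that was lost without EtOH_ATGLi p08, the highest vehicle library at 2.90 CPM (log2 difference -0.58, adjusted p = 0.0802).

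Mrc1, the mannose receptor of tissue macrophages, ranged from 7.61 to 15.9 CPM in EtOH_CON (median 9.89) and from 3.84 to 9.56 in Cort_CON (median 6.70). Again 10 of 14 corticosterone libraries lay under the whole vehicle range. It fell by 0.65 (SE 0.15, adjusted p = 5.02e-04) on the control diet and by 0.48 (SE 0.15, adjusted p = 0.0136) on the atglistatin diet. In the latter groups it ran from 5.88 to 11.2 CPM with vehicle and from 3.86 to 8.65 with corticosterone, p41 at 14.7 apart.

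Cd68 spanned 1.45 to 4.98 CPM in EtOH_CON (median 2.23) and 0.493 to 3.42 in Cort_CON (median 2.17), and the groups overlapped broadly. The log2 difference was -0.25 (SE 0.32, adjusted p = 0.576), with a 95% interval from -0.90 to 0.40, which holds the falls of Csf1r, Mrc1, Itgam and Adgre1 but not those of Ptprc and Ighm. With atglistatin food the difference was 0.00 (SE 0.30, adjusted p = 0.998). That value rested on p41, at 11.4 CPM against 0.526 to 2.32 in the other 13 Cort_ATGLi libraries: without it Cd68 fell by 0.61 (SE 0.23, adjusted p = 0.0416).

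C1qa ran from 10.9 to 22.3 CPM in EtOH_CON (median 17.0) and from 9.74 to 20.0 in Cort_CON (median 15.1). The difference was -0.20 (SE 0.18, adjusted p = 0.416, interval -0.56 to 0.17). With atglistatin food it was -0.04 (SE 0.18, adjusted p = 0.900), and without p41, which stood at 40.9 CPM with the next library at 15.4, it was -0.30 (adjusted p = 0.0596). Of the partner chains of C1q on the control diet, C1qb had a difference of -0.36 (adjusted p = 0.103) and C1qc fell by 0.45 (adjusted p = 0.0271), a call lost without EtOH_CON p09 or p10 (adjusted p up to 0.0766).

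Over 25 tested macrophage genes, 14 fell and 3 rose on the control diet (median -0.50), and 9 fell and 3 rose on the atglistatin diet (median -0.39). Cbr2, a carbonyl reductase, fell by 1.43 (SE 0.20, adjusted p = 1.73e-07), and Cx3cr1, the fractalkine receptor, by 2.46 (SE 0.40, adjusted p = 1.42e-06). Aif1 (Iba1) fell by 2.01 (adjusted p = 4.46e-05). The 3 that rose were Lyve1, a hyaluronan receptor of perivascular macrophages and lymphatic vessels, by 0.95 (adjusted p = 1.65e-04), Cd163, the haemoglobin scavenger receptor, by 0.57 (adjusted p = 0.00685), and F13a1, the coagulation factor XIII A chain, by 0.47 (adjusted p = 0.0120). The markers named for macrophages thus moved in both directions. Their summed level overlapped between groups, 266 to 436 CPM in EtOH_CON and 177 to 349 in Cort_CON. Without p41, 16 of the 25 fell and 2 rose on the atglistatin diet, and in a fit of those 2 groups alone 5 fell.

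Itgam was the lowest-count member with Ptprc and Adgre1. It ranged from 0.368 to 1.89 CPM in EtOH_CON (median 1.47) and from 0.128 to 1.72 in Cort_CON (median 0.669), with 3 of 14 libraries below the vehicle range. It fell by 0.79 (SE 0.30, adjusted p = 0.0315). The call was lost without any 1 of EtOH_CON p09 (adjusted p = 0.0566), EtOH_CON p11 (0.0534) or Cort_CON p35 (0.0522). On the atglistatin diet it fell by 1.07 (SE 0.31, adjusted p = 0.00536), from 0.580 to 2.15 CPM to 0.159 to 1.56. Its integrin partner Itgb2 had a difference of -0.62 (SE 0.34, adjusted p = 0.147). Of the 5 tested partners and ligands 4 fell on the control diet, or 3 to 4 when 1 library was left out. Among them Thy1 fell by 2.20 (adjusted p = 3.33e-15), Icam2 by 0.82 (adjusted p = 8.74e-05) and Icam1 by 0.66 (adjusted p = 0.0496). Icam1 was called in 11 of the 24 fits that left 1 library out.

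**Figure D2:**
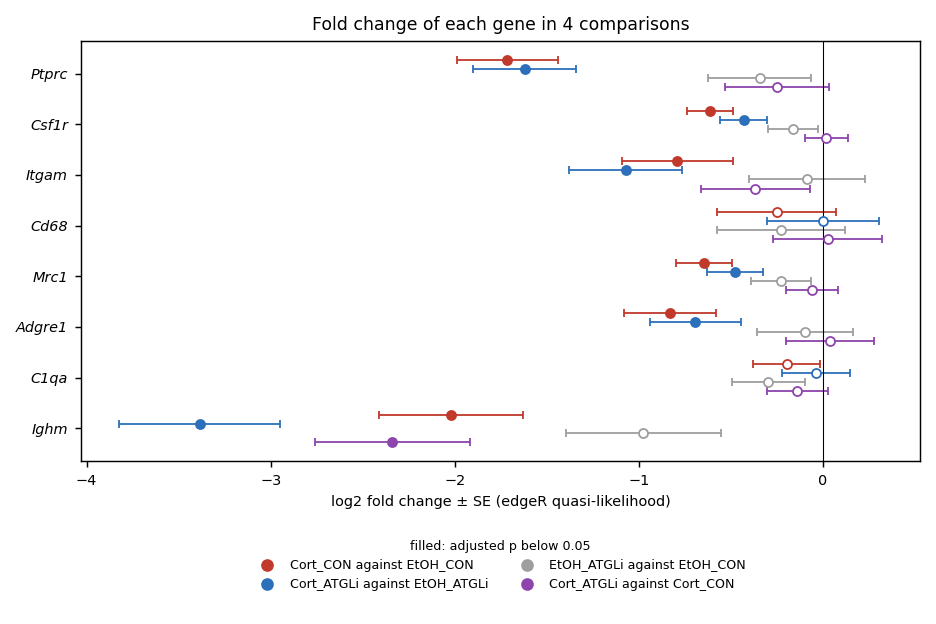
log2 fold change with SE of each gene in 4 comparisons (horizontal axis, edgeR quasi-likelihood fit). Filled points have an adjusted p below 0.05. The corticosterone comparisons are filled for 6 genes on each diet, and the only filled atglistatin point is Ighm with corticosterone, at -2.34.

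Ighm had the largest difference among the 8 genes on both diets. It ranged from 24.2 to 117 CPM in EtOH_CON (median 45.7, mean 57.3 ± 29.2 SD, n = 10) and from 0.880 to 43.4 in Cort_CON (median 8.51). In Cort_CON 11 libraries lay at or under 11.97 CPM, below every EtOH_CON library, and the other 3 stood at 40.03, 43.0 and 43.4. The fold was 4.06 (log2 difference -2.02, SE 0.39, adjusted p = 5.09e-05). Under atglistatin Ighm was 14.1 to 64.2 CPM with vehicle (median 22.3) and 1.01 to 5.07 with corticosterone (median 2.76). This is the only one of the 8 genes whose groups did not overlap, and it fell by 3.39 on the log2 scale (SE 0.44, adjusted p = 4.38e-08). The share of all genes without overlap was not counted.

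B-cell genes were scarce: of 20 listed, Ighm included, 6 were in the table and 4 were tested (Ighm, Igkc, Ebf1 and Mzb1). Igkc, the kappa light chain, fell by 2.99 on the control diet (SE 0.67, adjusted p = 3.31e-04) and had a difference of -1.44 on the atglistatin diet (adjusted p = 0.0995). Ebf1, a B-cell factor that fat and stromal cells also use, fell by 0.41 and 0.39. Mzb1, a secretory protein of plasma cells, rose by 1.20 on the control diet (SE 0.37, adjusted p = 0.00711). For T and NK cells 2 of 18 listed genes were in the table, and 1 was tested.

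The counts by role on the control diet, then on the atglistatin diet, were as follows. Of 12 tested genes of the CSF1 receptor pathway, Csf1r, Tyrobp and Spi1 included, 8 fell and 0 rose (1 rose without EtOH_CON p09 or Cort_CON p50), and then 5 fell (3 without EtOH_ATGLi p12). The ligands Csf1 and Il34 fell by 0.98 (adjusted p = 7.49e-06) and 0.71 (adjusted p = 2.53e-04) on the control diet. Csf2ra, a receptor chain for GM-CSF, fell by 1.44 (adjusted p = 1.12e-07).

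All 4 tested genes of the monocyte list, Itgam included, fell on both diets (3 to 4 on each diet when 1 library was left out). Ccr2, the receptor that draws monocytes out of marrow, was lower by a log2 difference of -2.48 (adjusted p = 2.28e-09) and Fn1 of -1.73 (adjusted p = 5.45e-11). Of 8 tested genes of dendritic cells and MHC class II, 7 fell on both diets, with medians of -3.57 and -3.31. The class II chains H2-Ab1 and H2-Eb1 fell by 3.96 (adjusted p = 1.50e-18) and 3.89 (adjusted p = 3.23e-17), further than any of the 8 marker genes. Of 12 classical complement genes 8 fell, and then 6. The C1 proteases C1s1 and C1ra fell by 0.79 (adjusted p = 9.13e-07) and 0.76 (adjusted p = 6.58e-06).

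Among 10 scavenger and mannose receptors 4 fell and 3 rose, and then 2 fell and 3 rose. Mrc2 fell by 1.34 (adjusted p = 2.00e-07), while Stab2 rose by 0.89 (adjusted p = 1.23e-07) and Cd36 by 0.86 (adjusted p = 1.06e-11). Of 6 chemoattractant genes 3 fell, and then 2 (4 with limma voom or DESeq2, and 4 without any 1 of EtOH_ATGLi p09 or p11 or Cort_ATGLi p14 or p48), with Cxcl12 lower by a log2 difference of -1.27 (adjusted p = 1.89e-16) and Ccl24 of -1.12 (adjusted p = 2.53e-05). Mast-cell genes fell in 4 of 4 and 3 of 4 (3 to 4 and 2 to 3 when 1 library was left out), and neutrophil genes in 2 of 3 and 1 of 3.

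**Figure D3:**
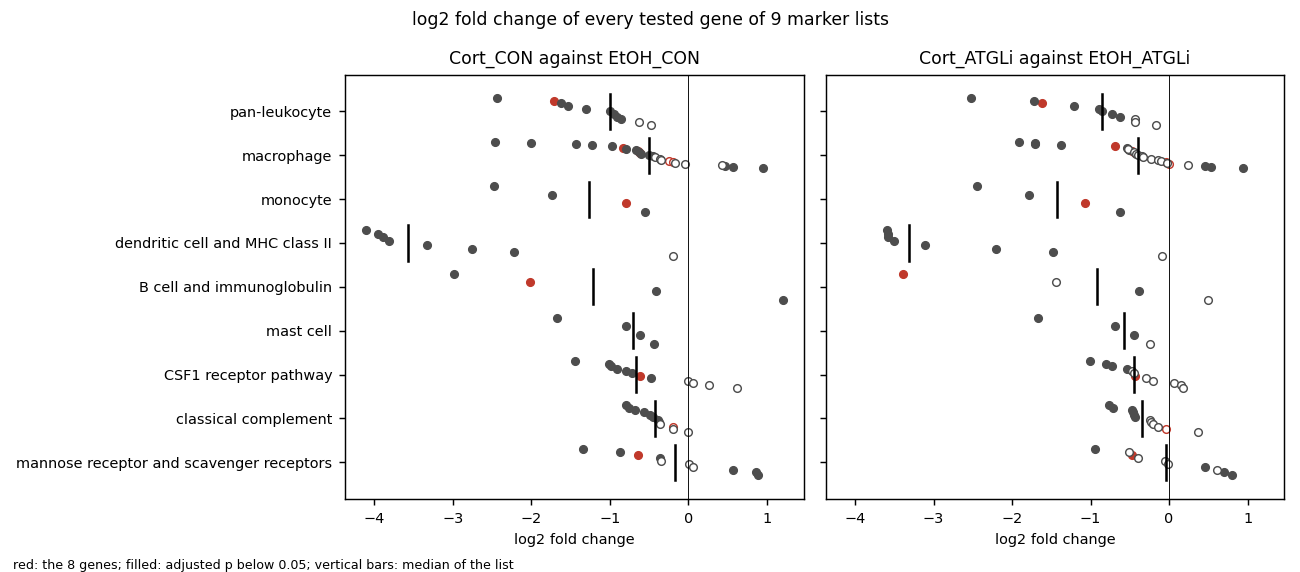
log2 fold change of every tested gene (points) of 9 lists, for corticosterone against vehicle on each diet. Filled points have an adjusted p below 0.05, red points are the 8 genes, and bars are list medians. The MHC class II list lies furthest left (median -3.57 on the control diet), and macrophage and scavenger genes lie on both sides of 0.

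Genes of other cells of the muscle moved as well. Of 10 fibro-adipogenic genes 9 fell on each diet (medians -1.09 and -0.87), and of 10 endothelial genes 6 fell and 1 rose, and then 5 fell and 1 rose. Of 10 muscle fibre genes 4 rose, and then 3 rose and 1 fell. Of 5 erythroid genes 4 rose, and then 1, and of 9 adipocyte genes 3 fell and 2 rose, and then 1 fell and 2 rose. Several of these counts moved without 1 library. On the control diet 2 muscle fibre genes rose without EtOH_CON p10, and 1 adipocyte gene rose without any 1 of EtOH_CON p01, p02, p04 or p15 or Cort_CON p35. On the atglistatin diet 3 endothelial genes fell without EtOH_ATGLi p07 and 2 without p13. There 4 adipocyte genes rose without EtOH_ATGLi p14 or Cort_ATGLi p24, and 2 fell without p41. Of the erythroid genes there, 0 rose without EtOH_ATGLi p12 or Cort_ATGLi p24, 2 without Cort_ATGLi p13 or p18, 3 without p41 and 4 without EtOH_ATGLi p14. In a list for lymph node stroma, a tissue that lies near the muscle, Cxcl13 rose by 2.99 (SE 0.49, adjusted p = 3.02e-06) and by 3.31, and Clu did not pass. The part of these changes in the marker genes' values was not tested.

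In vehicle mice 0 of the 8 genes passed the test for atglistatin (0.0238% of all tested genes were called, in either direction). All 8 differences were negative, from -0.98 to -0.09, where the median over all tested genes was -0.003, and 1 had an unadjusted p below 0.05. The share of all genes at that unadjusted threshold was not counted, here or in the comparisons below. DESeq2, limma voom and a fit of those 2 groups alone also called 0 of the 8. The 1 gene was Ighm, at 14.1 to 64.2 CPM against 24.2 to 117 (log2 difference -0.98, SE 0.42, unadjusted p = 0.0252, adjusted p = 0.665). The EtOH_CON libraries are shared by this comparison and that of corticosterone on the control diet.

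In corticosterone mice 1 of the 8 genes passed the test for atglistatin, against 1.6% of all genes. Ighm was 1.01 to 5.07 CPM in Cort_ATGLi against 0.880 to 43.4 in Cort_CON, and fell by 2.34 (SE 0.42, adjusted p = 0.00111). The value rested in part on the 3 Cort_CON libraries at 40.03 to 43.4 CPM: without them it was -1.22 (adjusted p = 0.0680). With limma voom it was -1.66 (adjusted p = 0.0751). The other 7 differences lay between -0.37 and 0.04. C1qa had a difference of -0.14 (adjusted p = 0.826), and without p41 it fell by 0.40 (adjusted p = 0.0486).

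Whether the corticosterone difference depended on diet was tested as an interaction. It called 0 of the 8 genes (0.0397% of all genes), and 1 had an unadjusted p below 0.05. DESeq2 and limma voom also called 0 of the 8. Ighm had the largest interaction, -1.36 (SE 0.59, unadjusted p = 0.0258, adjusted p = 0.872), which became -0.24 without the 3 Cort_CON libraries of high Ighm.

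Within Cort_CON the insulin labels, which carry no unit, fell apart: 3 mice had 9.31 (p33), 14.5 (p32) and 16.8 (p34), and the other 11 had 27.7 to 39.8. The split uses the label and no expression value, but that these libraries hold high Ighm was known when it was made, so the tests below are no independent support. Ighm was 40.03, 43.0 and 43.4 CPM in the 3 lower-insulin libraries and 0.880 to 11.97 (median 5.92) in the other 11. The groups did not overlap, and the lower-insulin values lay within the EtOH_CON range.

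Ighm was higher by 2.70 on the log2 scale in the lower-insulin libraries (SE 0.40, adjusted p = 2.02e-05), the only one of the 8 genes called, where 3.73% of all genes were called. By an exact two-sided permutation test of log2 CPM over the 364 splits of 3 against 11, p was 0.00275, the smallest the design allows, for 1 of 8 genes tested that way. Over the 14 Cort_CON libraries alone, the log2 slope was 1.65 for each halving of insulin (SE 0.35, adjusted p = 0.0375). The labels fall in clusters, so this slope is not separate from the split. With the 9 highest labels (36.7 and above) set against the other 5, the difference was 2.001 (adjusted p = 0.0180). With disease state as a covariate, in a fit of the 14 Cort_CON libraries alone, the lower-insulin difference was 2.60 (SE 0.48, adjusted p = 0.0190).

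The other 7 genes did not pass in the lower-insulin libraries, with log2 differences from 0.01 (Csf1r) to 0.63 (Adgre1, SE 0.39, adjusted p = 0.469) and exact permutation p from 0.0907 to 0.808. Ptprc was 0.715, 0.775 and 0.815 CPM in the 3 libraries and 0.252 to 1.86 in the other 11. The intervals were wide: that of Cd68 ran from -0.53 to 1.49 and that of Ptprc from -0.95 to 1.00. Igkc, the light chain, was 0.163, 1.00 and 0 CPM in p32, p33 and p34, with a difference of -0.16 (adjusted p = 0.974). Ebf1 was lower, with a difference of -0.66 (adjusted p = 0.0312), a call lost without any 1 of Cort_CON p32, p33 or p45 (adjusted p up to 0.376), and Mzb1 had a difference of 0.83 (adjusted p = 0.438). The summed pan-leukocyte level was 11.7 to 14.3 CPM in these libraries, inside the 9.76 to 18.7 of the other 11. Of the macrophage list, Cbr2 was called, higher by 1.49 (adjusted p = 1.32e-06).

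**Figure D4:**
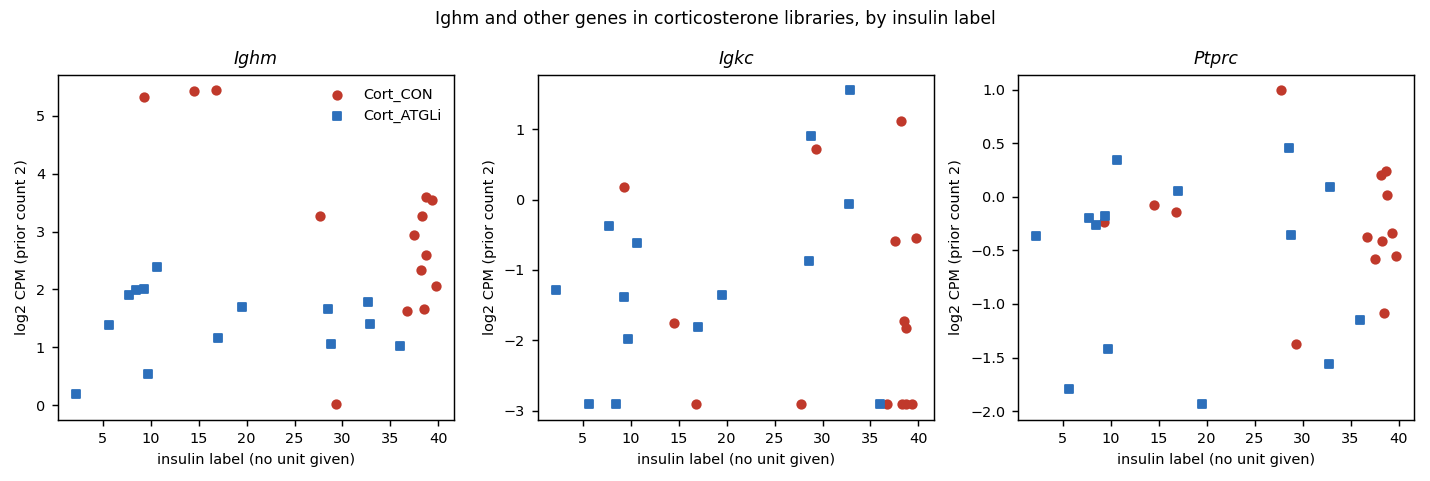
log2 CPM (prior count 2) of Ighm, Igkc and Ptprc against the insulin label (no unit given) in the Cort_CON and Cort_ATGLi libraries. The 3 Cort_CON libraries with labels of 9.31 to 16.8 stand apart in Ighm and lie among the others in Igkc and Ptprc, and Cort_ATGLi libraries with labels as low have Ighm at or under 5.07 CPM.

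In Cort_ATGLi insulin ran from 2.19 to 36.0, and Ighm stayed between 1.01 and 5.07 CPM over that range (Pearson r of log2 CPM with insulin 0.02, Spearman rho -0.09, permutation p = 0.944 and 0.760, n = 14). Without the 2 libraries farthest from the median label r was 0.16. Leaving out p41 alone gave r = -0.28 and rho = -0.36 (permutation p = 0.356 and 0.228, n = 13). The slopes of Ighm per halving of insulin differed between the 2 corticosterone groups by 1.71 (SE 0.38, adjusted p = 0.0268, 28 libraries, edgeR), and by 1.46 (SE 0.41, adjusted p = 0.0936) without p41, the mouse of lowest insulin. No other member passed that test. It includes the lower-insulin Cort_CON libraries, whose high Ighm was known beforehand, so it is no independent support.

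The disease label of Cort_CON separated none of the 8 genes, and 0% of all genes were called. At an unadjusted p below 0.05 there was 1 of the 8, Ighm, lower in the 9 diabetic mice by a log2 difference of -1.11 (SE 0.52, p = 0.0367, adjusted p = 0.967). Of the 3 lower-insulin mice 1 is labelled diabetic (p34). With log2 insulin as a covariate the difference was -0.03. DESeq2 and limma voom also called 0.

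Within Cort_ATGLi the slope on log2 insulin called 0 of the 8 genes (0.103% of all genes by the same adjusted threshold), and DESeq2 called 0. At an unadjusted p below 0.05 there were 5 of the 8, all negative. The share of all genes at that threshold was not counted, so this count has nothing to be set against. For each doubling of insulin the log2 slope was -0.62 for Cd68 (SE 0.14, adjusted p = 0.0780), -0.31 for Mrc1 (SE 0.07, adjusted p = 0.0780), -0.20 for Csf1r (adjusted p = 0.184), -0.31 for C1qa (adjusted p = 0.248) and -0.40 for Adgre1 (adjusted p = 0.279). These slopes rested on p41. Without it they were -0.06 for Cd68, -0.15 for Mrc1, -0.07 for Csf1r, 0.04 for C1qa and -0.15 for Adgre1.

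Library p41, with an insulin label of 2.19, held the highest Cort_ATGLi levels of all 5 macrophage genes. Csf1r was 27.2 CPM against 19.3 in the next library, Mrc1 14.7 against 8.65, Adgre1 2.94 against 1.27, C1qa 40.9 against 15.4 and Cd68 11.4 against 2.32. Itgam, at 1.56, was also the highest of its group. Ptprc was not high there, at 0.643 CPM with a group median of 0.675, and Ighm, at 1.01, was the lowest of the group. In p41 Lyve1 stood at 94.4 CPM, Cd163 at 24.5 and Cxcl13 at 46.6, and H2-Aa and Cd74 of MHC class II were both at 0.184, which is few counts. These genes are given without their levels in the other libraries, so they are not called high or low.

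**Figure D5:**
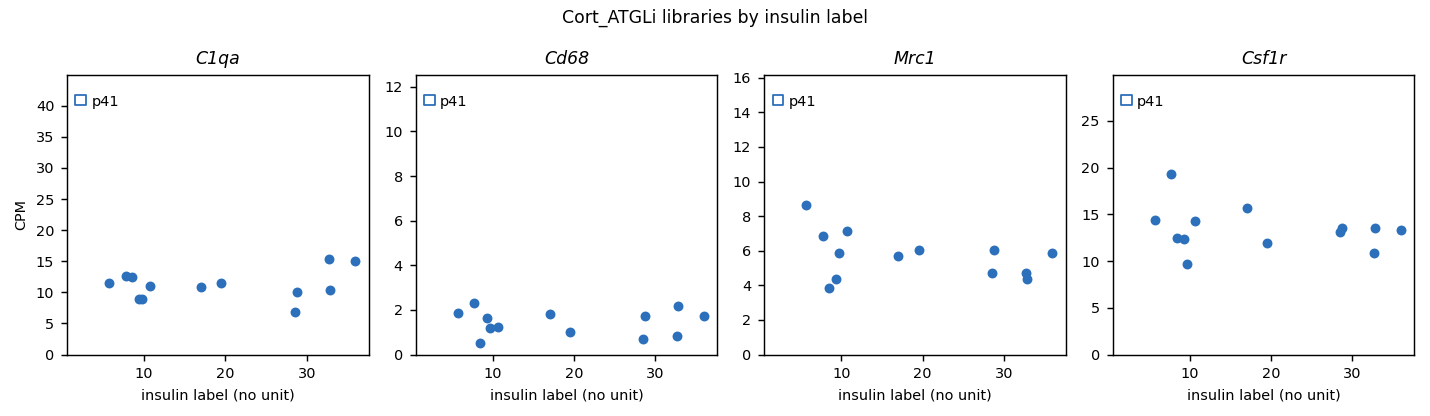
CPM of C1qa, Cd68, Mrc1 and Csf1r against the insulin label (no unit given) in the 14 Cort_ATGLi libraries. The open square is p41, which is above all other libraries in each panel (C1qa 40.9 against at most 15.4 CPM); without it the log2 slope of C1qa per doubling of insulin is 0.04.

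Levels were also set against insulin inside each group. Over 32 relations (8 genes in EtOH_CON, EtOH_ATGLi, Cort_ATGLi and the 9 highest labels of Cort_CON), 0 had an unadjusted permutation p below 0.05 for Pearson's r and 1 did for Spearman's rho. That was Adgre1 in EtOH_CON (r = 0.59, p = 0.0724; rho = 0.65, p = 0.0490, n = 10, permutation test), with Benjamini-Hochberg values over the 32 relations of 0.579 and 0.856, and r was 0.56 without the 2 libraries farthest from the median. Over all of Cort_CON no pooled correlation is given, since its labels fall in clusters. The same limit holds for the Ighm slopes over Cort_CON given above.

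The 8 genes varied together only in part. Over the 48 libraries, after the 4 group means were taken out, the residual correlation (a description over libraries that share group, depth and kit) was 0.69 for Csf1r with C1qa, 0.65 for Csf1r with Cd68 and 0.63 for C1qa with Cd68. Library p41 is among these points. Ptprc had values from -0.08 to 0.26 with the other 7, and Ighm from -0.08 to 0.26. Among 10546 genes of at least 1 CPM, those most like C1qa were C1qc (0.84), C1qb (0.79), Arpc1b (0.76), Clec10a (0.75) and Grn (0.75). Those most like Csf1r were C3 (0.79), Arpc1b (0.78), Ifitm3 (0.75), Ahnak2 (0.74) and Ecm1 (0.74). For Ptprc they were Dcn (0.59), Fyn (0.58), Setd5 (0.56), Zmat1 (0.55) and Dync2h1 (0.54).

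Of 20 listed B-cell and immunoglobulin genes 4 were tested, Ighm included, so a search for genes like Ighm could find few of them. None of the 5 genes most like Ighm is an immunoglobulin gene, and no conclusion is drawn from that. They were Car3 (0.80), a carbonic anhydrase abundant in fat and slow muscle, Dupd1 (0.80), a phosphatase, Faap100 (0.79), Msrb1 (0.78) and Smox (0.75), which encodes spermine oxidase. Without the 3 lower-insulin libraries the values were 0.65, 0.63, 0.62, 0.67 and 0.70. Car3 stood at 3601 to 4172 CPM in those 3 libraries and at 397 to 1835 in the other 11 of Cort_CON, and it was higher by 1.80 (adjusted p = 4.49e-05). Dupd1, Faap100 and Msrb1 were also higher there, by 2.03, 1.12 and 0.75, and Smox had a difference of 0.99 (adjusted p = 0.0858). Igkc had a residual correlation with Ighm of -0.08, Mzb1 of 0.01 and Ptprc of 0.26, while Cd74 and H2-Aa had 0.67 and 0.61.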

How the data were processed

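Libraries were made from total RNA of mixed gastrocnemius with Lexogen Quant-Seq and sequenced as forward reads of 50 bases, per the labels; Quant-Seq is known as a method that reads transcript ends. The values tested were raw counts, whole-number read counts per gene, in a table deposited by the authors. A deposited table of normalized signal holds the same counts divided by size factors and was not tested. Per the submitters' processing notes the authors worked with GRCm38, DESeq2 1.24.0 and R 3.6.1. Aligner, counting tool, strand setting and annotation were not given in the sources used here. In 47 of 48 libraries every count was even (in EtOH_ATGLi p13, 49.6% were odd), so the tests were repeated on halved counts. Reads carry no stated molecular identifiers, so counts are not independent molecules.

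Of 14125 genes, 12592 passed edgeR's filterByExpr over the 4 groups (minimum count 10, minimum total 15). All 48 libraries entered 1 quasi-likelihood fit (edgeR 4.0.16 in R 4.3.3, TMM scaling, robust, two-sided, Benjamini-Hochberg over all tested genes, threshold 0.05). Adjusted p for the 4 groups and the interaction are from it unless another tool or fit is named. The splits of Cort_CON by insulin or disease label each had their own fit of the 48 libraries. The slope over Cort_CON and the fits with a covariate used its 14 libraries alone, and the slope difference used 28. Values without some libraries are from refits. The SE was derived from the F statistic of each edgeR fit. CPM uses TMM-scaled totals, and log2 CPM a prior count of 2. The insulin slope in Cort_ATGLi was fitted on the 14 Cort_ATGLi libraries alone. In the insulin comparison Cort_CON was split at the widest gap of its sorted labels. Pairs of libraries of a group differed beyond sampling noise (lowest chi-square per degree of freedom 7.91 over 272 pairs). Where nothing states separate animals, p-values measure the spread between these libraries. The scripts were tested on simulated counts.

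The 8 genes and 19 lists of 204 genes (cell types and pathways) were chosen with earlier results of these data known. Named from each list were the 2 other genes with the smallest p for corticosterone on the control diet, plus genes named for their role. Alternatives were RLE scaling, no low-count filter, halved counts, limma 3.58.1 voom, DESeq2 1.42.0, a fit of only the groups compared, leaving out the lower-insulin Cort_CON libraries, leaving out each library, and a replicate block. Promoters came from RefSeq.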

Additional observations from a re-analysis of the deposited data

Results flagged for a closer look

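A check for single libraries covered 32 sets of values: the 8 genes in EtOH_CON, EtOH_ATGLi, and the diabetic and the nondiabetic Cort_CON mice. The 14 Cort_ATGLi libraries, p41 among them, were not checked. Chance alone picks out about 1 set in 20, and 1 library stood apart. It was the Ighm level of p34 among the 9 diabetic Cort_CON mice, at 43.4 CPM with the next library at 11.6, a gap of 0.748 of the whole range. Its insulin label, 16.8, is the lowest of those 9 mice.

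The slope of Ighm on insulin differed between the corticosterone groups: per halving of insulin it was greater in Cort_CON than in Cort_ATGLi by 1.71 on the log2 scale (SE 0.38, edgeR adjusted p = 0.0268, 28 libraries). Without Cort_ATGLi p41 the difference was 1.46 (adjusted p = 0.0936). The Cort_CON slope includes p32, p33 and p34, whose high Ighm was known beforehand, so this is no independent support. Among the 9 highest Cort_CON labels, Ighm and insulin had a Pearson r of 0.30 (permutation p = 0.444).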

How the results depend on the processing

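The counts of 6 genes called for corticosterone on each diet were 6 under RLE scaling, no filter, halved counts, limma voom and DESeq2. In a fit of only the 2 groups 5 were called on the atglistatin diet (Adgre1 adjusted p = 0.0504). Leaving out 1 library gave 5 to 6 on the control diet and 5 to 7 on the atglistatin diet. For atglistatin in corticosterone mice the count of 1 became 0 with limma voom and 0 without the lower-insulin Cort_CON libraries, and ran from 1 to 2 when 1 library was left out. The insulin slope in Cort_ATGLi called 0 to 2 when 1 library was left out: without p17 Cd68 (-0.70, adjusted p = 0.0342), and without p25 Cd68 (-0.65) and Mrc1 (-0.33), both at adjusted p = 0.0252. In the permutation test of insulin, 1 gene became 0 with the 9 highest labels against the other 5, and 0 to 1 when 1 library was left out, since 2 against 11 allows no smaller p.

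Differences near 0 changed sign. For Cd68 on the atglistatin diet the value 0.00 became -0.00485 with RLE scaling, -0.0122 with no filter, -0.36 with limma voom and -0.0346 with DESeq2. It was -1.16 with the replicate block, which held only p13 and p14 of each group and so not p41. When 1 library was left out, it ran from -0.61 to 0.0740. C1qa there ran from -0.30 to 0.0132, and its slope in Cort_ATGLi from -0.37 to 0.0379. Calls of the 8 genes and of the other named genes that were lost without 1 library are given beside the results. Without 1 library, 11 to 14 macrophage genes and 6 to 8 complement genes fell on the control diet.

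All-gene counts moved by over 1.5 times in these fits: for atglistatin in vehicle mice 3 became 21 (halved counts), 28 (limma voom), 38 (DESeq2) and 38 (only 2 groups). In corticosterone mice 201 became 78 (only 2 groups) and 98 (without lower-insulin libraries). The interaction gave 5, and 18 with DESeq2. The insulin split gave 470, with 193 for a slope, 117 for the 9 highest labels and 213 with disease state. The slope in Cort_ATGLi gave 13, then 22 (no filter), 29 (DESeq2) and 0 (untransformed insulin).

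Title numbers shared between groups were used as a replicate block. Correlations of same-numbered libraries were from -0.06 to 0.15 over 4 numbers and -0.02 to 0.04 over 2, so the numbers were not taken as pairs. The block fits held only libraries with a shared number, so those of p13 and p14 for corticosterone on the atglistatin diet. There 4 of the 8 were called (1880 of all genes instead of 3781). Itgam had -1.39 (adjusted p = 0.152) and Adgre1 -0.70 (adjusted p = 0.488). For atglistatin in vehicle mice, with p09 to p12 of each group, 0 were called (21 of all genes). The block and the smaller number of libraries cannot be told apart in these fits. At 1 CPM a value rests on between 9.15 and 26 counts, which limits Ptprc, Itgam and Adgre1.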

Other observations

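Outside the 8 genes, the MHC class II gene H2-Aa also differed between single Cort_CON libraries. It stood at 4.89, 4.86 and 2.94 CPM in p32, p33 and p34 and at 0.503 to 3.88 in the other 11, with a log2 difference of 0.81 (edgeR adjusted p = 0.41). Retn, the adipocyte hormone resistin, was lower in the 3 lower-insulin libraries by a log2 difference of -2.35 (adjusted p = 0.00967), a call lost without p32 or p33 (adjusted p up to 0.117), and Cd59a, a complement inhibitor, was higher by 0.53 (adjusted p = 0.0074), a call lost without p32 (adjusted p = 0.105).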
